A study of Mus musculus with 6 samples.

Results

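Chemokines are small secreted proteins that guide leukocytes along a gradient, and they act through receptors that signal by heterotrimeric G proteins. The genes described here are the protein-coding genes of the count table whose symbol marks them as a CC, CXC, CX3C or XC chemokine ligand, a signaling chemokine receptor or an atypical receptor that binds chemokines without G protein signaling. They number 56 of the 40166 genes in the table, namely 35 ligands and 21 receptors, and the rule that picks them uses the gene name and type and no measured value, though it was set with earlier results of these data known. Within them, the interferon-type ligands (Cxcl9, Cxcl10 and Cxcl11), which bind the receptor CXCR3 of activated T and NK cells, were set against the neutrophil-type ligands (Cxcl1, Cxcl2, Cxcl3 and Cxcl5), which bind CXCR2 and draw neutrophils. In most tissues the former are induced by interferons through STAT and IRF factors, while the latter are induced by interleukin-1, TNF and bacterial products through NF-kB.

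RNA was sequenced from 6 bulk tumors grown from YUMM3.3, a single BRAF-mutant mouse melanoma cell line, injected under the skin of C57BL/6 mice. Vehicle tumors 7, 8 and 9 came from mice given H2O by oral gavage. RGS tumors 10, 11 and 12 came from mice given rigosertib (RGS) at 300 mg/kg by the same route. The study describes RGS as a small-molecule RAS mimetic that could block signaling downstream of RAS, and states that several mechanisms have been reported. Dosing was 5 days a week in both groups, with collection after 17 days. No other treatment or allele distinguished the groups in the labels, which also give no age or sex. The labels do not say whether the 3 tumors of a group came from separate mice. The p-values therefore weigh group differences against variation between these tumors, which may not be variation between mice. The question was which chemokine ligands and receptors differed between RGS and vehicle tumors.

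The tumors held between 13837932 and 32555494 counted reads, and every vehicle library (at least 22793087) was deeper than every RGS library (at most 21617368), so that effects of depth and of RGS cannot be told apart from the groups alone. The 56 genes took between 0.0515% and 0.0688% of the counts in vehicle tumors and between 0.0568% and 0.0635% in RGS tumors. A count of 3, used as the floor of detection, corresponded to between 0.0856 and 0.226 CPM, the count scaled by library size. Several defining markers of the labelled tissue and of host cells were at 0 in all 6 libraries: Mlana, Tyr and Dct of melanocytes, Ptprc of all leukocytes, Adgre1 and Fcgr1 of macrophages, Cd3d, Cd3e, Cd3g, Cd8a and Cd8b1 of T cells, Klrb1c, Klrk1 and Gzma of NK cells, Csf3r, Mmp8 and Retnlg of neutrophils, and Ms4a1, Cd79b and Pax5 of B cells. For these markers the data go against the labelled tissue, so that "tumor" is used below as the label's word, and whether the libraries represent whole tumors was not tested.

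Promoter sequences were examined for letters bound by the factors that separate the interferon-type from the neutrophil-type ligands. They came from RefSeq (GRCm38.p6) and covered 250 bases before and 50 bases after each start site. A promoter was at hand for 41 of the 56 genes and for 20 of the 26 that could be tested. Ccl2, Ccl5, Ccl7, Cxcl5, Cxcl16 and Ccr10 were tested but had no promoter at hand, so their letters are not known here. The NF-kB letters GGGNNNTTCC and the interferon-stimulated response element letters TTTCNNTTTC were searched on both strands. The 4 stretches below are shown because they belong to ligands of both types whose levels are compared next, and they carry 10 bases on each side of the outermost match. They lie at chr5:92348974-92349112 (Cxcl10, minus strand, from 223 to 85 bases before the start), chr5:90891146-90891194 (Cxcl1, plus strand, 99 to 51 bases before), chr5:90903792-90903840 (Cxcl2, plus strand, 107 to 59 bases before) and chr5:90786018-90786070 (Cxcl3, plus strand, 83 to 31 bases before). Capitals mark every base within a match on either strand, and matches that overlap run together.
Cxcl10: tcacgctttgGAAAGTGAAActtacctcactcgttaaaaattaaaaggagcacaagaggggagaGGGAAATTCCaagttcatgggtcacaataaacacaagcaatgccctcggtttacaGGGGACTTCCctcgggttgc
Cxcl1: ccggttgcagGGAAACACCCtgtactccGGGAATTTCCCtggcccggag
Cxcl2: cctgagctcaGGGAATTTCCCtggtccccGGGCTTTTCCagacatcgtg
Cxcl3: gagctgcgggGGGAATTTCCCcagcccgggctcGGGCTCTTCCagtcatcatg

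In the Cxcl10 stretch the first capital run is the interferon-type element, read on the opposite strand, and the other runs are NF-kB letters. The Cxcl1, Cxcl2 and Cxcl3 stretches hold NF-kB letters alone, and all of them share the same run of 11 bases in capitals. NF-kB letters stood in 6 of the 20 promoters of tested genes (Cxcl10, Cxcl1, Cxcl2, Cxcl3, Ccl9 and Ccl20) against 6.31% of the 27025 genes with a promoter in the table. Interferon-type letters stood in 2 of the 20 (Cxcl10 and Cxcl14) against 3.99% of those genes. A match describes letters only, and no match says only that these letters are not in the window.

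Of the 56 genes, 26 passed the filter on low counts (a median of at least 5 counts in at least 1 group) and were tested. Between RGS and vehicle tumors, 13 of the 26 differed at an adjusted p under 0.05 (edgeR's quasi-likelihood F test, Benjamini-Hochberg over 15355 genes), whereas 32.8% of all tested genes were called. Of these 13 genes, 8 were higher in RGS tumors, where 16.3% of all tested genes were called higher, and 5 were lower, where 16.5% of all tested genes were called lower. Levels did not overlap between the groups for 15 of the 26 genes, against 45.8% of all tested genes. By kind of gene, the 18 tested ligands held 3 higher and 5 lower genes with a median log2 fold change of -0.08, and the 8 tested receptors held 5 higher and 0 lower genes with a median of 2.73, beside a median of -0.05 over all tested genes. Ccr1, Cxcr3 and Ackr2 passed the filter only through the RGS tumors and Ccr10 only through the vehicle tumors. Among the ligands, Ccl3 passed only through the RGS tumors, and Ccl20, Ccl28 and Cxcl14 only through the vehicle tumors. For these genes the filter itself leans toward a higher level in the group they passed through, although Ccl28 had a positive log2 fold change (1.22). The filter also left 13 of the 21 receptors untested. The difference between ligands and receptors was not tested.

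**Figure D1:**
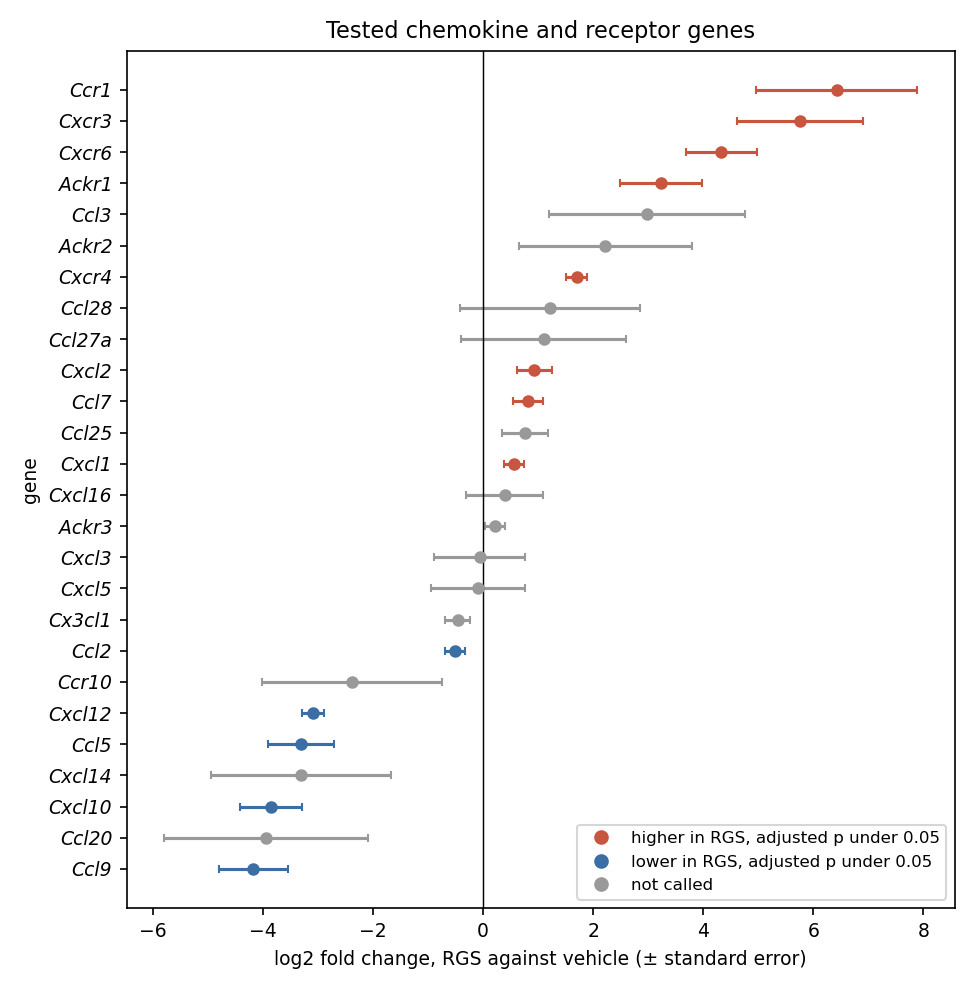
Log2 fold changes of the 26 tested genes, RGS against vehicle, with standard errors from edgeR, ordered from the most positive to the most negative. Red points (8 genes) were higher and blue points (5 genes) lower in RGS tumors past an adjusted p of 0.05, and grey points were not called. Ccr1, Cxcr3, Cxcr6 and Ackr1, all receptors, stand at the top of the plot, and of these Ccr1 and Cxcr3 passed the filter only through the RGS tumors.

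Cxcl10 was the interferon-type ligand with a measurable level, and in RGS tumors it fell by 3.84 on the log2 scale. Its gene (chr5:92346638-92348889, minus strand) gave 540, 531 and 479 counts in vehicle tumors 7, 8 and 9 and 3, 36 and 19 counts in RGS tumors 10, 11 and 12. Every RGS tumor lay far below every vehicle tumor, and RGS tumor 10 stood at the floor of detection. Vehicle tumors averaged 18.3 ± 2.64 CPM (SD, n = 3), and RGS tumors averaged 1.34 ± 1.29 CPM, a 13.7-fold difference of means (standard error of the log2 fold change 0.57, adjusted p = 4.05e-05 by edgeR). The estimate was -4.89 without RGS tumor 11, the RGS tumor with the most Cxcl10. In bulk tumors, fewer cells of a type and less RNA per cell cannot be told apart. Cxcl10 lies within Art3 on the opposite strand, and Art3 was at 0 in all 6 tumors.

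The other interferon-type ligands were nearly undetected. Cxcl9 gave 15 counts in vehicle tumor 9 and 0 in the other 5 tumors, and was not tested. Cxcl11 is entered in the table as a polymorphic pseudogene, was therefore not among the 56 genes, and was at 0 in every tumor. The receptor shared by these ligands went the other way: Cxcr3 (chrX:101731535-101734269, minus strand) gave 0, 6 and 0 counts in vehicle tumors and 54, 67 and 79 counts in RGS tumors, or 0.0712 ± 0.123 against 4.14 ± 1.38 CPM (SD, n = 3). The groups did not overlap, and the fitted log2 fold change was 5.76 with a standard error of 1.14 (adjusted p = 0.000728, edgeR). Without vehicle tumor 8, the only vehicle tumor with Cxcr3 counts, it was 9.51, and without vehicle tumor 7 it was 5.14.

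The neutrophil-type ligands rose slightly or did not pass the test. Cxcl1 (chr5:90891241-90893115, plus strand), a ligand of CXCR2, gave 2380, 2516 and 2674 counts in vehicle tumors and 2454, 1736 and 2549 counts in the shallower RGS libraries. Scaled to library size, these were 67.9, 89.6 and 114.9 CPM against 116.1, 130.7 and 155.9 CPM, so that every RGS tumor lay above every vehicle tumor, though vehicle tumor 9 and RGS tumor 10 nearly met. The log2 fold change was 0.56 with a standard error of 0.19 (adjusted p = 0.0279, edgeR). Cxcl2 (chr5:90903871-90905938, plus strand), the neighboring gene, gave 165, 198 and 205 counts in vehicle tumors and 260, 179 and 220 in RGS tumors, or 6.86 ± 2.06 against 13.1 ± 0.672 CPM, with a log2 fold change of 0.93 and a standard error of 0.32 (adjusted p = 0.0328, edgeR). For Cxcl2 the groups did not overlap either.

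These calls were fragile. With scaling by library size alone, neither passed, at log2 fold changes of 0.43 for Cxcl1 and 0.80 for Cxcl2. Cxcl1 lost its call without vehicle tumor 7 or 8 or RGS tumor 11 or 12, at log2 fold changes between 0.39 and 0.57. Cxcl2 lost its call without any 1 tumor other than vehicle tumor 9, at values between 0.72 and 0.97. The direction did not change in any of these fits.

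Cxcl3 and Cxcl5, the other neutrophil-type ligands, were low and were not called. Cxcl3 (chr5:90786103-90789600, plus strand) gave 30, 77 and 45 counts in vehicle tumors and 25, 42 and 16 in RGS tumors, with overlapping levels of 1.84 ± 0.946 and 1.77 ± 1.21 CPM (SD, n = 3) and a log2 fold change of -0.06 ± 0.83 (standard error, adjusted p = 0.964 by edgeR). Cxcl5 (chr5:90759360-90761624, plus strand) gave 58, 36 and 36 counts against 28, 17 and 26, with 1.49 ± 0.192 and 1.40 ± 0.167 CPM and a log2 fold change of -0.10 ± 0.85 (adjusted p = 0.944). The standard errors are wide enough that a change as large as that of Cxcl2 in either gene would not have been resolved.

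Set against each other within a tumor, the interferon-type and neutrophil-type ligands did not overlap between the groups. For every 100 Cxcl1 counts, vehicle tumors 7, 8 and 9 gave 22.7, 21.1 and 17.9 Cxcl10 counts and RGS tumors 10, 11 and 12 gave 0.122, 2.07 and 0.745. This ratio needs no library scaling, and the closest tumors of the groups still stood apart, at 17.9 and 2.07. Against Cxcl2, the vehicle tumors gave 327, 268 and 234 Cxcl10 counts per 100 and the RGS tumors 1.15, 20.1 and 8.64. The mean log2 CPM of Cxcl9, Cxcl10 and Cxcl11 minus that of Cxcl1, Cxcl2, Cxcl3 and Cxcl5 was -3.29, -3.75 and -2.80 in vehicle tumors and -5.88, -5.08 and -5.21 in RGS tumors, a difference of -2.11 that has no test of its own. Of the 2 sides, the interferon-type mean moved by -1.77 and the neutrophil-type mean by 0.34. With Cxcl11, at 0 throughout, left out of the mean, the difference was -3.0.

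**Figure D2:**
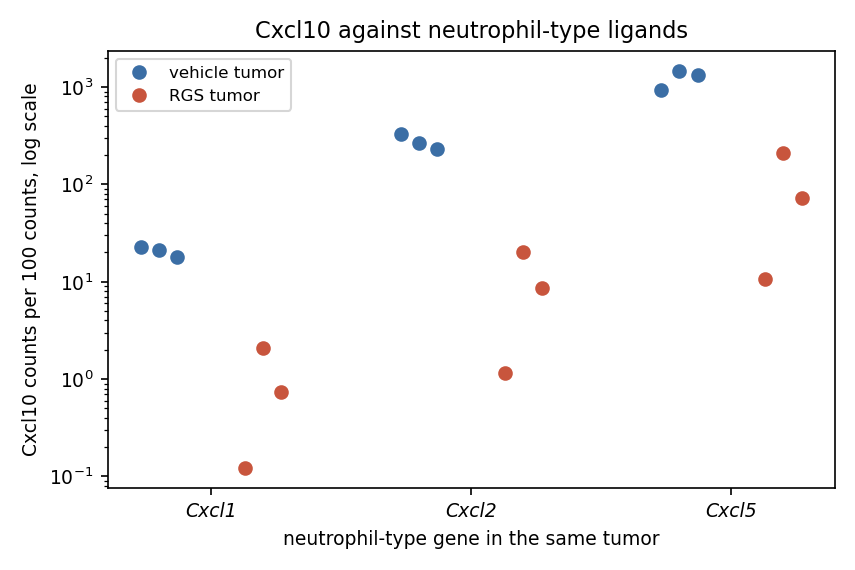
Cxcl10 counts per 100 counts of Cxcl1, Cxcl2 or Cxcl5 in the same tumor, on a log axis, with 1 point for each of the 3 vehicle (blue) and 3 RGS (red) tumors. Against Cxcl1 the vehicle tumors sit between 17.9 and 22.7 and the RGS tumors between 0.122 and 2.07, and the groups do not overlap for any of the 3 denominators.

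Signaling genes upstream of both types of ligand were read from lists chosen with earlier results known. Of 17 tested genes for interferon receptors and their signaling, 7 were lower and 2 higher in RGS tumors, with a median log2 fold change of -0.10, beside 16.5% lower and 16.3% higher of all tested genes. The lower genes included Irf7, a factor of the type I interferon response (37.8 to 1.96 CPM, log2 fold change -4.27), Irf9, the DNA-binding subunit of ISGF3 (46.5 to 6.94 CPM, -2.75), Usp18, an inhibitor of interferon receptor signaling (19.1 to 1.36 CPM, -3.81), and Stat2 (47.0 to 11.8 CPM, -2.0). Irf1 (-1.51) and Socs3 (-0.60) were lower too. The genes that rose were Ifnar1, a subunit of the type I interferon receptor (50.6 to 91.2 CPM, log2 fold change 0.85), and Socs1, an inhibitor of JAK kinases (17.3 to 35.1 CPM, 1.02). Ifng, the gene of interferon gamma, was at 0 in all tumors, and Ifnb1 reached at most 4 counts.

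Of 17 tested genes for interleukin-1, TNF and NF-kB signaling, 3 were higher and 0 lower past the threshold, with a median log2 fold change of 0.21. The count of higher genes was near the 16.3% called higher among all tested genes, of which 16.5% were called lower. Csf2, which encodes the growth factor GM-CSF, rose from 3.20 to 91.2 CPM (log2 fold change 4.86, adjusted p = 1.54e-09 by edgeR). Il1a, which encodes interleukin-1 alpha, rose from 2, 1 and 2 counts in vehicle tumors to 14, 26 and 32 in RGS tumors (adjusted p = 0.0158 by edgeR). Il1a passed the filter only through the RGS tumors, so the filter leaned toward a higher call. Rela, a subunit of NF-kB, rose from 75.1 to 121.9 CPM (log2 fold change 0.70). Il1b was at 0 in all tumors, and the inhibitor genes Nfkbia and Tnfaip3 were not called. Whether direction followed the promoter letters was not tested. Of the tested ligands with NF-kB letters alone, Cxcl1 and Cxcl2 rose and Ccl9 fell. Cxcl3 (log2 fold change -0.06) and Ccl20 (-3.94) were not called. Cxcl10, with letters of both kinds, fell. Cxcl14, with interferon-type letters alone, was not called (log2 fold change -3.31). The promoters of Ccl2, Ccl5, Ccl7 and Cxcl5 could not be searched.

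**Figure D3:**
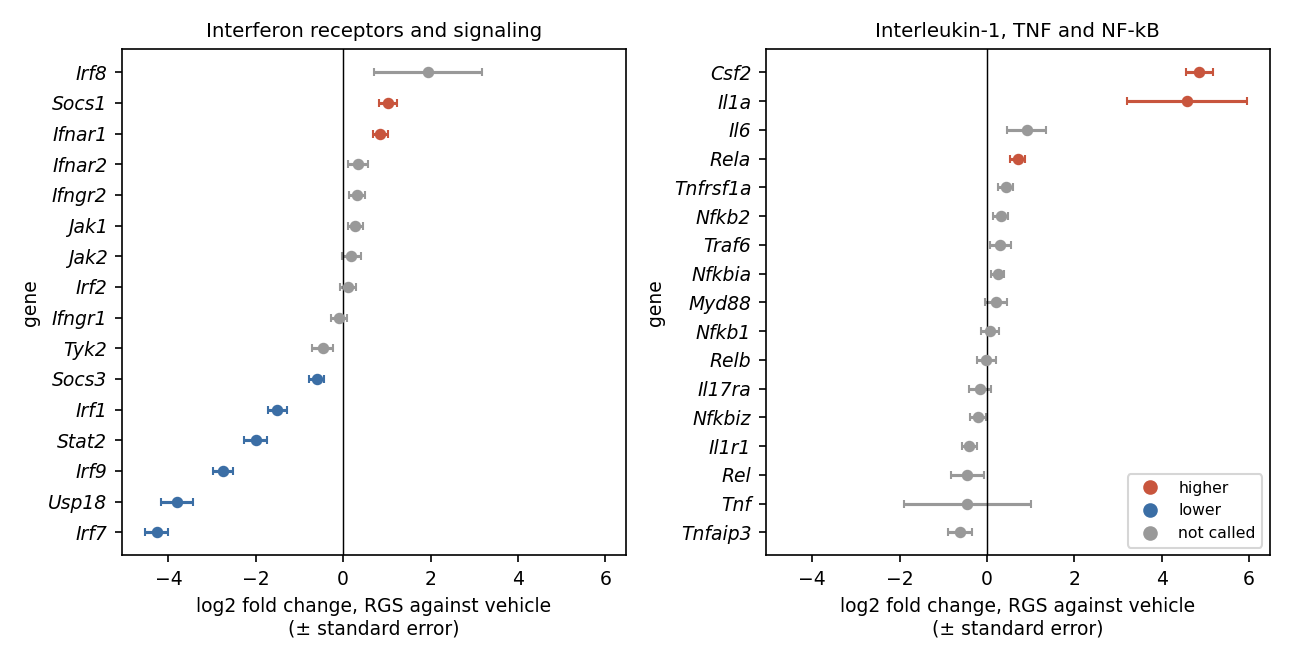
Log2 fold changes, RGS against vehicle, with standard errors from edgeR, for 16 of the 17 tested genes of interferon receptors and their signaling (left) and 17 of interleukin-1, TNF and NF-kB signaling (right). On the left 6 of the plotted genes are lower (blue) and 2 higher (red). On the right 3 genes are higher and 0 lower, and grey points were not called.

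Among the inflammatory CC ligands that bind CCR1, Ccl5 and Ccl9 fell. Ccl5 (chr11:83525778-83530518, minus strand), which encodes RANTES, gave 176, 166 and 190 counts in vehicle tumors and 8, 12 and 11 in RGS tumors. Its level was 6.37 ± 1.62 CPM (SD, n = 3) against 0.652 ± 0.263 CPM, 9.77-fold lower (log2 fold change -3.30, standard error 0.60, adjusted p = 0.000331 by edgeR). Ccl9 (chr11:83572919-83578636, minus strand), a CCR1 ligand of myeloid cells, gave 308, 435 and 397 counts against 2, 6 and 29, or 13.8 ± 4.39 against 0.773 ± 0.884 CPM, 17.8-fold lower (log2 fold change -4.17, standard error 0.63, adjusted p = 5.44e-05). Neither gene overlapped between the groups, and RGS tumor 12 held most of the remaining Ccl9. The Ccl9 estimate was -5.82 without RGS tumor 12 and -3.59 without RGS tumor 10. Ccl3, of the same group, was not called and reached at most 1.41 CPM in any tumor.

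The receptor Ccr1 (chr9:123962124-123968692, minus strand) rose. Of the ligands named above, Ccl5 and Ccl9 fell while Ccl3 was not called (log2 fold change 2.98). Ccl7, grouped below with the ligands of CCR2, was higher (0.82), so the ligands did not move as 1 set against Ccr1. Ccr1 gave 0, 2 and 0 counts in vehicle tumors and 14, 62 and 35 in RGS tumors, so that every RGS tumor was above every vehicle tumor. Over the summed counts, the RGS level was 94.5 times that of vehicle, with an exact interval at 95% from 25.5 to 790 that covers counting error only (adjusted p = 0.00231 by edgeR). The fitted log2 fold change of 6.42 moved to 8.77 without vehicle tumor 8, 5.83 without vehicle tumor 7 and 5.60 without RGS tumor 11.

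The monocyte attractants Ccl2 and Ccl7, neighbors on chromosome 11 and ligands of CCR2, moved in opposite directions. Ccl2 (chr11:82035571-82037453, plus strand) gave 4309, 4773 and 4541 counts in vehicle tumors and 2523, 1287 and 2087 in RGS tumors, or 122.9, 170.0 and 195.1 CPM against 119.4, 96.9 and 127.6 CPM. The groups overlapped, since vehicle tumor 7 lay below RGS tumor 12, and the log2 fold change was -0.50 with a standard error of 0.18 (adjusted p = 0.0389, edgeR). Ccl7 (chr11:82045712-82047525, plus strand) gave 346, 530 and 632 counts against 692, 423 and 552, or 9.87, 18.9 and 27.2 CPM against 32.7, 31.9 and 33.8 CPM, without overlap, and its log2 fold change was 0.82 with a standard error of 0.28 (adjusted p = 0.0310). The 3 RGS tumors were nearly equal for Ccl7 while the vehicle tumors were spread.

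Both calls depended on single tumors. Ccl2 lost its call without vehicle tumor 8 or 9 or RGS tumor 10 or 11, at log2 fold changes between -0.54 and -0.35. Ccl7 lost its call without any 1 tumor other than vehicle tumor 9, at values between 0.51 and 0.84, and with scaling by library size alone, at 0.69. Ccr2, the receptor of both ligands, was at 0 in every tumor. The related ligand Ccl8 was not tested, with 0, 1 and 14 counts in vehicle tumors and 0, 19 and 0 in RGS tumors, and Ccl12 was at 0 throughout.

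The pair of Cxcl12 and Cxcr4, a ligand of stromal cells and its receptor, moved apart. Cxcl12 (chr6:117168535-117181367, plus strand) gave 3357, 2635 and 2036 counts in vehicle tumors and 188, 186 and 162 in RGS tumors. The vehicle tumors lay close together at 92.4 ± 4.33 CPM (SD, n = 3), the RGS tumors at 10.9 ± 2.71 CPM, and the groups were far apart. Cxcl12 was 8.45-fold lower, with a log2 fold change of -3.09, a standard error of 0.21 and the smallest adjusted p of the 26 genes (2.87e-09, edgeR). Fibroblast markers (5 of 6 with counts, Lum at 0) summed to 200.1 to 262 CPM in vehicle and 130.9 to 148 CPM in RGS tumors, with Col3a1, Pdgfra and Pdgfrb lower and Dcn higher past the threshold, and their part in the Cxcl12 result was not tested.

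Cxcr4 (chr1:128588199-128592293, minus strand) gave 1381, 1654 and 1481 counts in vehicle tumors and 3357, 2706 and 2700 in RGS tumors. Its level rose from 54.0 ± 12.9 to 175.9 ± 24.3 CPM (SD, n = 3), 3.26-fold, without overlap (log2 fold change 1.70, standard error 0.19, adjusted p = 1.76e-06 by edgeR). Ackr3, an atypical receptor that removes CXCL12, did not pass the test, at 79.4 ± 13.9 CPM in vehicle and 92.3 ± 11.02 CPM in RGS tumors with overlapping values (log2 fold change 0.22, standard error 0.17, adjusted p = 0.366). Thus of the 3 genes of this axis with levels above 50 CPM in vehicle tumors, the ligand was lower, its signaling receptor higher and its scavenger not called.

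Cxcr6 (chr9:123806475-123811760, plus strand), a receptor of effector T and NKT cells, gave 16, 13 and 3 counts in vehicle tumors and 134, 134 and 87 in RGS tumors. It rose from 0.349 ± 0.191 to 7.25 ± 2.51 CPM (SD, n = 3), 20.7-fold (log2 fold change 4.32, standard error 0.64, adjusted p = 4.51e-05 by edgeR), without overlap. The gene lies inside Fyco1 on the opposite strand, and the strand setting of the counting is not given in the sources used here. Fyco1 itself was not called, with a log2 fold change of -0.30. The only ligand of CXCR6, Cxcl16, was not called (log2 fold change 0.39, standard error 0.71) and overlapped between the groups, at 2.12 ± 0.118 and 2.81 ± 2.27 CPM. Among markers of the T cells that carry CXCR6 and CXCR3, the chains Cd3d, Cd3e, Cd3g, Cd8a and Cd8b1 were at 0 in all tumors, whereas Trac gave 0 counts in every vehicle tumor and 30, 16 and 10 in RGS tumors. Trac passed the filter only through the RGS tumors. Trbc2, the most abundant T cell marker, was not called (46.3 against 46.2 CPM, log2 fold change -0.005), and Cd4 had 14 counts in vehicle tumor 9 and 0 in the other tumors. The part of T cells in the Cxcr3 and Cxcr6 results was not tested.

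Ackr1 (chr1:173331886-173333750, minus strand), the Duffy antigen receptor of red cells and venules, which binds both CC and CXC ligands, gave 29, 9 and 12 counts in vehicle tumors and 34, 60 and 160 in RGS tumors. Levels were 0.827, 0.321 and 0.516 CPM against 1.61, 4.52 and 9.78 CPM. The RGS tumors differed widely among themselves, though each was above every vehicle tumor (log2 fold change 3.23, standard error 0.75, adjusted p = 0.00256 by edgeR). Without RGS tumor 12 the log2 fold change was 2.42 and the call was lost (adjusted p = 0.0639). Ackr1 shares 493 bases with Cadm3 on the same strand, and Cadm3 was not called. Of the endothelial markers, 5 of 7 had counts, with sums of 2.49 to 4.10 CPM in vehicle and 6.32 to 13.8 CPM in RGS tumors. Most of that rise came from Cdh5, the only marker called (0.555 to 6.20 CPM). Vwf (log2 fold change 0.33), Pecam1 (1.88) and Tek (-1.88) were not called. Kdr was not tested, with at most 6 counts, and Emcn and Erg were at 0. The part of endothelial cells in the Ackr1 result was not tested.

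**Figure D4:**
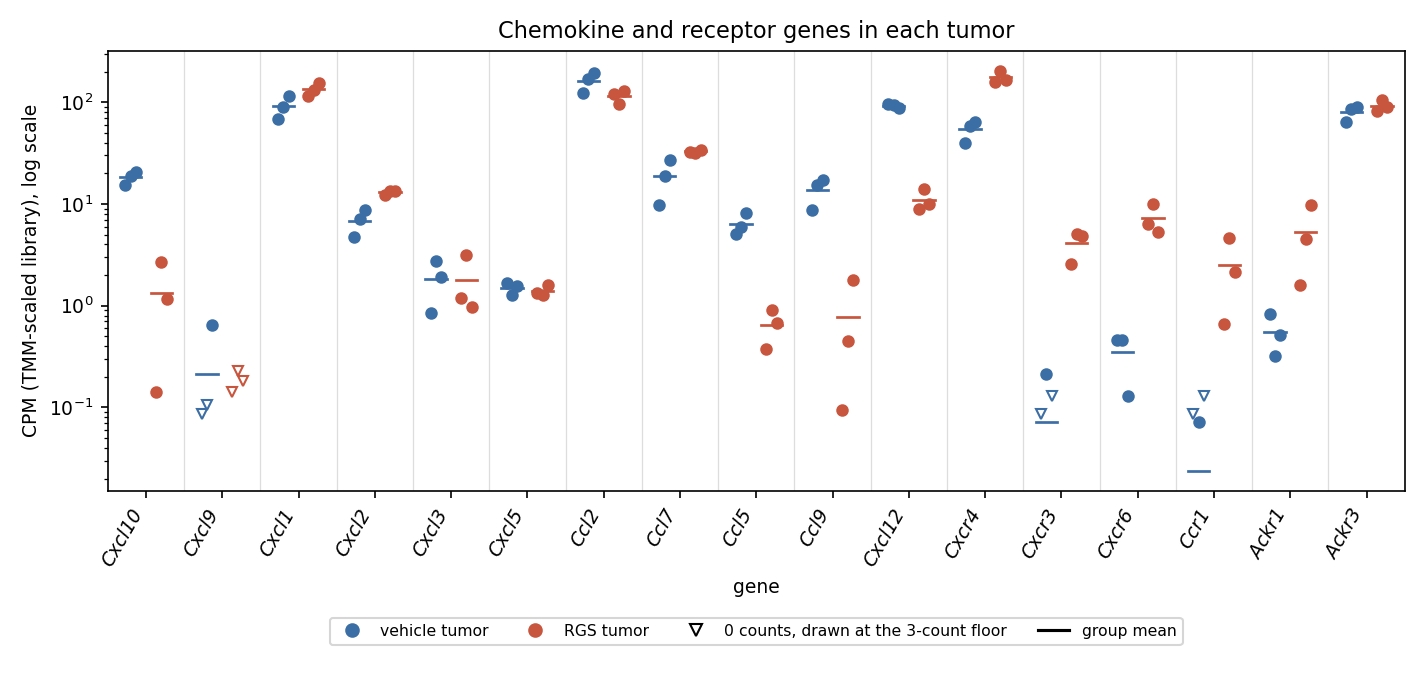
Level of 17 chemokine and receptor genes in each of 3 vehicle (blue) and 3 RGS (red) tumors, in CPM of the TMM-scaled library on a log axis, with bars at the group means. Open triangles mark tumors with 0 counts, drawn at the 3-count floor of that library. Cxcl10, Ccl5, Ccl9 and Cxcl12 lie lower, and Cxcr4, Cxcr3, Cxcr6, Ccr1 and Ackr1 higher, in all 3 RGS tumors than in any vehicle tumor.

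The tested genes that were not called numbered 13. Those at or above 1 CPM in either group were, besides Cxcl3, Cxcl5, Ackr3 and Cxcl16, the membrane-bound ligand Cx3cl1, or fractalkine (27.9 ± 4.38 against 20.3 ± 3.86 CPM, log2 fold change -0.46, adjusted p = 0.133 by edgeR) and Ccl25 (4.03 ± 0.396 against 6.85 ± 1.93 CPM, log2 fold change 0.76, adjusted p = 0.172). Ccl25, a ligand of the gut-homing receptor CCR9, was higher in every RGS tumor than in any vehicle tumor, and it shares 204 bases with Elavl1 on the opposite strand, which rose by 0.85 on the log2 scale.

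The remaining 7 (Ccl3, Ccl20, Ccl27a, Ccl28, Cxcl14, Ccr10 and Ackr2) had group means below 1 CPM. Of these, Ccl20 and Cxcl14 did not overlap between the groups. Ccl20, the ligand of CCR6, summed to 37 counts in vehicle tumors and 1 in RGS tumors, a ratio of 21.7 with a counting interval from 3.67 to 882 (adjusted p = 0.1098 by edgeR). Cxcl14 summed to 51 and 3 counts, a ratio of 9.99 with an interval from 3.23 to 50.04 (adjusted p = 0.131). Ccr10 lies within Cntnap1 on the opposite strand, which was lower by 1.69 on the log2 scale.

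Of the 30 genes that were not tested, 19 were at 0 in all 6 tumors, 3 (Ccl6, Ccl11 and Cx3cr1) never exceeded 3 counts, and 8 exceeded 3 counts in at least 1 tumor. These 8 were Cxcl9, Ccl8, Ccl17, Cxcl17, Ccr3, Ccr7, Ccr9 and Ackr4, and the highest count among them was 19, for Ccl8 in RGS tumor 11. The genes at 0 included the receptors Ccr2, Ccr4, Ccr6, Ccr8, Cxcr1, Cxcr2 and Cxcr5, and therefore Cxcr2, the receptor named above for the neutrophil-type ligands. They also included the ligands Ccl4, Ccl22, Ccl24, Cxcl13 and Xcl1, and the second of 2 entries named Ccl27a, on the scaffold JH584293.1. The number of the 56 genes with at least 1 count was 24, 32 and 27 in vehicle tumors and 29, 25 and 24 in RGS tumors.

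Per kilobase of gene length, the most abundant of the 56 genes in vehicle tumors was Ccl2 at 143 RPKM (CPM divided by the gene's length in kilobases, mean of 3 tumors), followed by Cxcl1 at 48.4, Cxcr4 at 29.9, Ackr3 at 23.7, Ccl7 at 23.3, Cxcl12 at 11.3 and Cxcl10 at 8.13. In RGS tumors the order was Ccl2 at 101, Cxcr4 at 97.3, Cxcl1 at 71.6, Ccl7 at 40.9 and Ackr3 at 27.6 RPKM, with Cxcl12 at 1.34 and Cxcl10 at 0.594. Neighbors in these orders, such as Ackr3 and Ccl7 in vehicle tumors or Ccl2 and Cxcr4 in RGS tumors, were not tested against each other.

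The make-up of the counts of all 56 genes differed between the groups although their total share of the library overlapped. Cxcr4 took 8.23%, 9.78% and 9.45% of these counts in vehicle tumors and 27.3%, 30.8% and 25.2% in RGS tumors. Cxcl12 took 20.0%, 15.6% and 13.0% in vehicle tumors and 1.53%, 2.12% and 1.51% in RGS tumors. The share of Ccl2 was 27.6% ± 1.73 (SD, n = 3) against 18.2% ± 3.14, and that of Cxcl1 15.4% ± 1.501 against 21.2% ± 2.28. Since the shares of a tumor add up to the whole, a higher share of 1 gene lowers those of others.

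**Figure D5:**
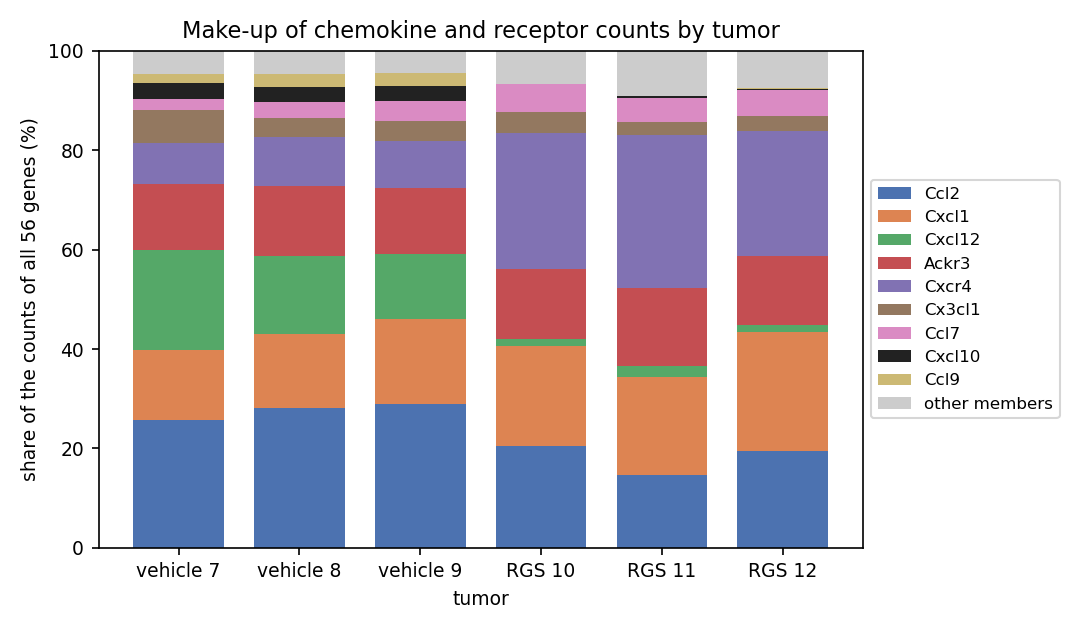
Share of the summed counts of the 56 genes taken by each of 9 genes and by the others together, as stacked bars for each tumor. Cxcr4 (purple) takes between 8.23% and 9.78% in vehicle tumors and between 25.2% and 30.8% in RGS tumors, while Cxcl12 (green) takes at least 13.0% in vehicle and at most 2.12% in RGS tumors.

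Other parts of the chemokine pathway were read from the same fit. Of 17 tested genes that carry or regulate the signal from the receptors, 7 were higher and 2 lower. Their median log2 fold change was 0.38, and of all tested genes 16.3% were called higher and 16.5% lower. Among the higher genes, those with the smallest p were Arrb1, which encodes beta-arrestin 1 (6.01 to 38.1 CPM, log2 fold change 2.65), the kinase gene Ptk2b (1.09), the G protein subunit gene Gnb2 (0.61) and the receptor kinase gene Grk2 (0.73). Rgs16, which encodes an inhibitor of G protein signaling, fell by 1.32 on the log2 scale from a mean of 771 to 309.6 CPM, and Gnai3 fell by 0.97. Dock2, Rac2 and Vav1, signal transducers of leukocytes, were at 0 in all 6 tumors.

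Of 16 tested genes for the cleavage, shedding and retention of chemokines, 5 were higher and 2 lower, with a median log2 fold change of 0.26, beside the same 16.3% and 16.5% of all tested genes. The syndecan genes, whose products hold chemokines on heparan sulfate, split, since Sdc3 rose (log2 fold change 1.05) while Sdc2 (-1.18) and Sdc4 (-0.74) fell. Hs6st1 (1.02) and Ext1 (0.61), which encode enzymes of heparan sulfate synthesis, rose as well. Sdc1 (0.28) and the synthesis genes Ext2 (0.34), Ndst1 (-0.31) and Ndst2 (0.24) were not called. The protease gene Mmp12 was at 0 in all vehicle tumors and gave 6, 9 and 9 counts in RGS tumors, at least 4.70-fold higher against a floor of 3 counts per library (adjusted p = 0.0217 by edgeR). Mmp12 passed the filter only through the RGS tumors, so the filter leaned toward a higher call. Dpp4, which encodes the protease that trims CXCL10 and CXCL12, was not tested, with at most 9 counts. Of 7 chemokine system genes outside the name rule, such as Pf4 and Ppbp, 2 were tested and 0 were called.

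Single markers of the cells that carry these receptors were higher in RGS tumors, while others were not called, near the floor or at 0. Of 5 pan-leukocyte markers, 4 had counts, and Laptm5 and Cd53 were higher in RGS tumors (log2 fold changes 2.35 and 1.41), with a summed level of 187 to 248 CPM in vehicle and 919 to 1028 CPM in RGS tumors, while Ptprc was at 0. Most of this sum came from Laptm5 (176 against 900 CPM). Coro1a (6, 0 and 0 against 2, 20 and 2 counts) and Cd52 were not tested. Cd52 had 10 counts in vehicle tumor 9 and 0 in every other tumor. Of 8 T cell markers, 3 had counts, with sums of 35.1 to 55.6 CPM and 45.0 to 49.1 CPM, mostly from Trbc2, which was not called, while Trac was higher in RGS tumors. Trac passed the filter through the RGS tumors alone, so the filter leaned toward a higher call. Of 6 NK cell markers, 3 had counts, with sums of 0.516 to 2.53 and 7.52 to 12.6 CPM. These sums came almost wholly from Eomes, which was called, since Ncr1 gave 2 counts and Prf1 1 count, each in 1 vehicle tumor alone. The 7 of 9 macrophage or monocyte markers with counts summed to 65.1 to 70.9 and 83.0 to 106.5 CPM. Most of this came from Cd68, which was not called (62.5 against 74.0 CPM), while Cd14 was called higher. C1qa, C1qb, Csf1r, Ly6c2 and Mrc1 gave at most 7 counts in any tumor, and Adgre1 and Fcgr1 were at 0. Neutrophil markers (5 of 8 with counts) stayed between 0.114 and 0.673 CPM in all tumors. Dendritic cell markers (5 of 6 with counts) summed to 5.93 to 9.30 and 7.91 to 14.2 CPM, with Flt3 higher past the threshold, Zbtb46 (log2 fold change -1.12) and Batf3 (-2.89) not called, and a median of -1.12 over the 3 tested, and melanocyte markers (5 of 8) to 4.98 to 7.73 and 4.53 to 11.2 CPM with none called. Flt3 passed the filter only through the RGS tumors and Batf3 only through the vehicle tumors. Keratinocyte markers summed to at most 2.56 CPM, adipocyte markers to at most 14.8 CPM, B cell markers to at most 0.473 CPM, skeletal muscle markers to at most 0.890 CPM and mast cell markers to at most 0.0612 CPM in any tumor, and none of them was called. The part of these cells in the ligand and receptor results was not tested.

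Depth did not change the calls when it was made equal. When reads were drawn at random so that every library matched the smallest, 8 of the genes were again called higher and 5 lower. DESeq2 in place of edgeR also called 8 higher and 5 lower. Cxcl10, Cxcl12, Ccl5, Ccl9, Cxcr4, Cxcr6, Cxcr3 and Ccr1 kept their direction and their call in every alternative fit that was made, including those without each tumor in turn.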

How the data were processed

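Bulk RNA-seq of 6 YUMM3.3 tumors (3 vehicle, 3 RGS) was used. Raw counts of reads in each gene were deposited by the authors, not normalized, with gene positions, types and a gene length, a further column used only to compute RPKM. Per the submitters' processing notes, the tools were cutadapt 1.18, FastQC 0.11.7, STAR 2.7.1a and featureCounts 1.6.4, and the build was mm10. The annotation, the strand setting and the handling of multimapping reads are not given in the sources used here. Unstranded counting cannot separate overlapping genes, and reads of near-identical copies may be lost. All 56 genes had the same start and end as in GENCODE M21 (GRCm38). No column of per-sample values lacked a sample (0 unmatched). No 2 tumors of a group agreed within sampling noise.

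The members and lists were chosen with earlier results of these data known, and the pathway (5) and marker (14) lists were written from general knowledge. Genes with a median of at least 5 counts in at least 1 group (15355 genes) were tested with edgeR 4.0.16 in R 4.3.3 (TMM factors, quasi-likelihood F test, Benjamini-Hochberg), the filter being that of the study's methods. Standard errors were obtained as the size of the log2 fold change over the root of its F statistic. CPM are on the TMM-scaled library, SDs are over 3 tumors, and log2 CPM for the difference of ligand types used a prior count of 2. Counting intervals are exact and conditional on the summed counts. The procedure was tested on simulated data. Named were the 7 ligands of the 2 types, every called gene, other tested genes with a mean of at least 1 CPM, untested genes above 3 counts, and up to 4 genes per pathway list and direction. Further genes at 0, low genes, uncalled pathway genes, overlapping neighbors and single markers were named after their values were seen. Alternatives were DESeq2 1.42.0, limma 3.58.1 (voom), robust dispersions, other scalings and filters, thinned counts, stricter thresholds and each tumor left out. Groups of 3 allow no outlier test. A few genes are counted but not reported here by name.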

Additional observations from a re-analysis of the deposited data

How the results depend on the processing

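Of 431 alternative values for single chemokine and receptor genes, 398 kept the direction and the side of the threshold, 22 kept the direction and lost the call, 2 gained a call and 9 turned the direction. The 9 all belong to genes that were not called. Cxcl3 (log2 fold change -0.06) came to 0.23 with thinned counts and ranged from -0.78 to 0.35 without each tumor in turn, above 0 without vehicle replicate 8 (0.35), RGS replicate 10 (0.15) or RGS replicate 12 (0.20). Cxcl5 came to 0.045 with limma's voom and 0.31 with thinned counts, and Ccl28 to -1.29 with voom. Without each tumor in turn, Ccl28 ranged from -5.29 (without RGS replicate 10) to 1.78 and Cxcl16 from -0.48 (without RGS replicate 11) to 0.79. With voom, Ackr2 (4.26, adjusted p = 0.0103) and Cxcl14 (-3.48, adjusted p = 0.0409) passed the threshold. Voom moved called values by over 1.5 times for Cxcl10 (-4.44), Ccl9 (-5.03), Cxcr3 (4.97) and Ccr1 (4.997), and thinning for Cxcr3 (7.002), all still called. The lost calls were those of Ccl2, Ccl7, Cxcl1, Cxcl2 and Ackr1. The number of the 26 tested genes called higher (8) was 5 with scaling by library size alone, 5 when a log2 fold change of at least 1 in size was also required and 5 at an adjusted p under 0.01, and between 4 and 8 without each tumor in turn, lowest without RGS replicate 12. It was 5 without vehicle replicate 7, vehicle replicate 8 or RGS replicate 11. The number called lower (5) ranged from 4 to 6 over all alternatives. Over all genes, 2503 higher and 2533 lower calls became 1168 and 1450 with that size required, and 1607 and 1562 at an adjusted p under 0.01. The difference between the ligand types (-2.11) was -3.0 without Cxcl11 and between -2.33 and -1.87 without each tumor in turn. Beyond the construction of each alternative, the cause was not tested. No paired analysis was possible because the groups share no replicate number. Low counts limit Cxcl9, Ccl20, Cxcl14, Ccl3, Ccl28 and the untested genes, and counting error alone does not cover differences between tumors.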
